A study of Mus musculus with 24 samples.

Results

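The Rab GTPases were examined in Lin-Sca-1+c-Kit+ cells (LSKs), the bone marrow fraction that holds hematopoietic stem cells and multipotent progenitors, of normal and leukemic mice with and without miR-142. The members were the rows of the read count table whose symbol was Rab followed by a number and, where present, a letter. This rule found 59 of the 24091 genes in the table, and 53 of them had enough counts to be tested among 13520 genes. Rab25, Rab26, Rab3b, Rab3c, Rab42 and Rab9b did not pass that filter and are given as levels only. Genes such as Rabep1 or Rabgef1, which encode partners of Rab proteins, are no members and were counted separately.

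The data were 24 bulk RNA-seq libraries of LSKs, 6 in each of 4 groups, with 3 from females and 3 from males per group. Each library has its own number in the labels, and the study's methods count mice; where a library were more than 1 mouse, p-values would still measure only the spread between these libraries. WT mice carried miR-142 and no BCR-ABL, miR-142 KO mice lacked miR-142, CP CML mice carried miR-142 and expressed BCR-ABL, and BC CML mice expressed BCR-ABL and lacked miR-142. BCR-ABL, the fusion kinase of chronic myeloid leukemia (CML), was driven by a tetracycline-controlled transactivator under the SCL promoter and was induced for 2 weeks by withdrawal of tetracycline; all mice were on a B6 background, and their ages are not given in the labels. miR-142 was deleted in the germ line, so it was absent from every cell type and not from LSKs alone. CP (chronic phase) and BC (blast crisis) are names of mouse models defined by miR-142 genotype.

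Rab proteins are small GTPases that give membranes their identity. A guanine nucleotide exchange factor (GEF) loads a Rab with GTP on its membrane, the GTP-bound form binds effectors such as tethers and motors, and a GTPase-activating protein (GAP) returns it to the GDP-bound form, which GDP dissociation inhibitor (GDI) extracts and recycles. Each Rab is typically found on particular organelles, among them the ER and Golgi, early, recycling and late endosomes, secretory granules and the cilium, and blood cells use a subset of them to store and release granules. miR-142 is a microRNA abundant in blood cells, which pairs through its seed, bases 2 to 8, with messages that it represses.

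Both mature arms of miR-142 are shown because the groups differ by this microRNA, with the seed in capitals (RefSeq, GRCm38.p6; the arms lie on the plus strand at chr11:87756903-87756925 and chr11:87756867-87756887).
miR-142a-3p: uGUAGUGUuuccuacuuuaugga
miR-142a-5p: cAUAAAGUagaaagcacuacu

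The seed of miR-142a-3p pairs with ACACTAC and that of miR-142a-5p with ACTTTAT, and both motifs were searched on the sense strand of the longest annotated 3' UTR of each protein-coding gene (GENCODE M21, GRCm38, the build named mm10). ACACTAC was found in 10 of the 53 tested Rab genes (18.9%) and in 873 of the 12609 tested genes with a 3' UTR (6.92%). The Rab 3' UTRs had a median length of 1949 bases against 1166 over all tested genes. The 10 genes were Rab2a and Rab23 with 2 matches each and Rab3a, Rab11b, Rab12, Rab14, Rab15, Rab18, Rab39 and Rab40c with 1 each. Of these 12 matches, 8 were followed by an A, the base that favours repression in known targets. Sequence around the match is shown for the 3 genes whose levels follow miR-142 most closely, for Rab15 and for Rab11b, whose level ran the other way; the match is in capitals.
Rab12, chr17:66495373-66495379, minus strand: tgtccttgttaattACACTACa
Rab2a, match at chr4:8606787-8606793, plus strand: ctgaattgtattaaACACTACa
Rab2a, match at chr4:8607325-8607331, plus strand: aaacagaaactccaACACTACa
Rab3a, chr8:70758570-70758576, plus strand: cctagaagttatgaACACTACa
Rab15, chr12:76799602-76799608, minus strand: gaggtaggaaggaaACACTACt
Rab11b, chr17:33744522-33744528, minus strand: agggactggagaaaACACTACa

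Such a match describes the letters of the annotated 3' UTR; binding was not measured, and which 3' ends LSKs use was not measured either. The match in Rab18 lies beyond the end of the gene as the deposited table gives it.

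The targeted gene Mir142 had 0 counts in all 12 miR-142 KO and BC CML libraries and 68 to 153 counts in the WT and CP CML libraries. Libraries held 16267965 to 24687077 counts, of which Rab genes made up 0.319% to 0.409%. All 6 genes of the LSK list (Kit, Ly6a, Cd34, Cd48, Slamf1 and Flt3) were detected in each group, with sums of 2283 to 3656 CPM. Of these 6, 1 was called higher and 3 lower in BC CML against CP CML, and 1 and 2 in miR-142 KO against WT. Flt3 had medians of 282 CPM in BC CML, 686 in CP CML, 396 in miR-142 KO and 817 in WT. Ly6a had 106, 51.6, 81.5 and 42.4 CPM in the same order. Marker genes of other cells also moved between groups. Median summed levels are given here in the order BC CML, CP CML, miR-142 KO, WT. They were 7429, 2632, 1356 and 634 CPM for 8 mast cell or basophil genes and 7140, 5821, 6565 and 2155 CPM for 5 genes of neutrophil-primed progenitors. They were 35.9, 330, 37.3 and 388 CPM for 6 B cell genes and 2.64, 14.5, 70.0 and 78.8 CPM for the 4 erythroid genes in the table. Among the B cell genes, Jchain alone had medians of 5.37, 299, 2.19 and 351 CPM, and Cd79b had 27.7, 27.4, 26.5 and 27.9 CPM. Of 5 tested B cell genes, 2 were lower in BC CML against CP CML and 1 in miR-142 KO against WT, and 0 were higher in either. Among the mast cell or basophil genes, Cpa3 had 4164, 1133, 264 and 83.3 CPM and Cma1 1657, 540, 2.90 and 2.17 CPM. Hdc had 142, 177, 75.3 and 29.8 CPM and Gata2 298, 333, 292 and 199 CPM. In BC CML against CP CML, 4 of these 8 genes and 3 of the 5 neutrophil-primed genes were called higher and 0 lower. The other 4 and 2 were not called. For mature neutrophil, megakaryocyte, monocyte and T or NK cell genes the group medians lay at 12.7 to 112, 291 to 488, 228 to 347 and 62.5 to 117 CPM. No marker was at 0 in every library. In bulk RNA, fewer cells of a type and less RNA per cell cannot be told apart, and the part of cell composition in the Rab differences was not tested.

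Levels between genes were compared as CPM per kilobase of gene length, the deposited length. Summed over the 59 genes, the Rab level had medians of 1511 CPM per kb in BC CML against 1281 in CP CML, and of 1381 in miR-142 KO against 1162 in WT. The 6 miR-142 KO libraries (1358 to 1464) all lay above the 6 WT libraries (1106 to 1233), and the 6 BC CML libraries (1453 to 1533) all lay above the 6 CP CML libraries (1254 to 1312). Rab44, a large Rab of mast cell granules, had the highest level averaged over the 4 groups, with 7.36% of the summed Rab level. It was followed by Rab5c (6.41%), which acts in early endosome fusion, Rab2a (5.42%) and Rab1a (4.87%), which act between ER and Golgi, and Rab38 (4.84%), a Rab of lysosome-related organelles. In WT alone Rab44 did not lead, with 4.09% against 6.22% for Rab5c and 5.83% for Rab38. The leading 10 genes made up 51.9% of the sum. Among the 53 tested genes, 24 had a mean of 50 CPM or more, 17 lay between 5 and 50 CPM and 12 were under 5 CPM.

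By compartment, the 16 ER and Golgi genes together took a larger share of the summed level where miR-142 was absent. Their share was 22.2% to 23.5% in miR-142 KO against 20.3% to 21.8% in WT, and 23.0% to 24.3% in BC CML against 20% to 21.6% in CP CML, with no overlap in either pair. Rab1a and Rab2a, set apart after their values were seen, carried this, with medians of 12.7% in BC CML against 8.83% in CP CML and of 11.3% in miR-142 KO against 8.39% in WT. The other 14 had lower shares without miR-142, at 11.1% against 12.1% and 11.5% against 12.8%. Their summed level had higher medians there, at 168 against 156 and 160 against 151 CPM per kb. In BC CML against CP CML 7 of the 16 were called higher and 5 lower (median log2 fold change -0.15), and in miR-142 KO against WT 5 and 6 (median -0.04). Exocytosis genes had lower shares without miR-142. These were 13.9% to 15.2% in WT against 11.9% to 13.5% in miR-142 KO, and 13.2% to 13.8% in CP CML against 11.8% to 12.6% in BC CML. Their summed level did not fall in the same way, with medians of 182 (BC CML), 173 (CP CML), 169 (miR-142 KO) and 172 CPM per kb (WT). The BC CML sums (178 to 194) all lay above the CP CML sums (171 to 174). Of 6 tested exocytosis genes, 3 were called higher and 0 lower in BC CML against CP CML. In miR-142 KO against WT 2 were higher and 0 lower, beside 20.4% and 19.9% of all genes called higher in these comparisons. The granule class had the widest range, with a median share of 19.0% in WT against 24.3% where miR-142 alone was deleted, and of 22.6% (BC CML) and 22.8% (CP CML) with BCR-ABL. Rab44 alone accounted for most of it, with medians of 9.49% in miR-142 KO against 3.88% in WT and of 8.69% in BC CML against 7.45% in CP CML. The other 6 granule genes had 14.8% against 15.7% and 14.1% against 15.3% in these pairs. Their summed level had medians of 207 against 183 and of 214 against 196 CPM per kb.

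The question was which Rab genes differed with miR-142 in leukemic LSKs and in normal LSKs. A gene was called where the edgeR adjusted p was under 0.05, and log2 fold changes below are given ± SE. Each gene was placed in 1 of 7 compartments by its known role. In BC CML against CP CML, 29 of 53 Rab genes were called, of which 23 were higher and 6 lower. Over all tested genes, 38.0% were called in this comparison, with 20.4% higher and 17.6% lower. The median log2 fold change of the Rab genes was 0.14, against 0.01 over all genes. The groups did not overlap for 16 Rab genes, beside 20.7% of all genes, and 2 of these 16, Rab44 and Rab7b, were not called.

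In miR-142 KO against WT, 26 of 53 Rab genes were called, with 19 higher and 7 lower, beside 36.3% of all genes called, 19.9% higher and 16.4% lower. The median log2 fold change was 0.11 for Rab genes and 0.01 for all genes. For 9 Rab genes the groups did not overlap, against 14.5% of all genes. The split changed with the scaling, to 12 higher and 11 lower with upper quartile normalization, while a fit to the WT and miR-142 KO libraries alone called 16 genes, 12 of them higher.

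The comparisons share no libraries. Of the 53 genes, 15 were called higher in both (28.3%) and 4 were called lower in both (7.55%), and 0 were called in opposite directions. Over all tested genes 11.5% were higher in both, 9.59% lower in both and 0.466% opposite. Most changes were small: the median size among called genes was 0.29 on the log2 scale in BC CML against CP CML and 0.31 in miR-142 KO against WT, and 5 and 4 genes reached a size of 1. Of the called genes, 7 and 5 had a mean under 5 CPM.

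**Figure D1:**
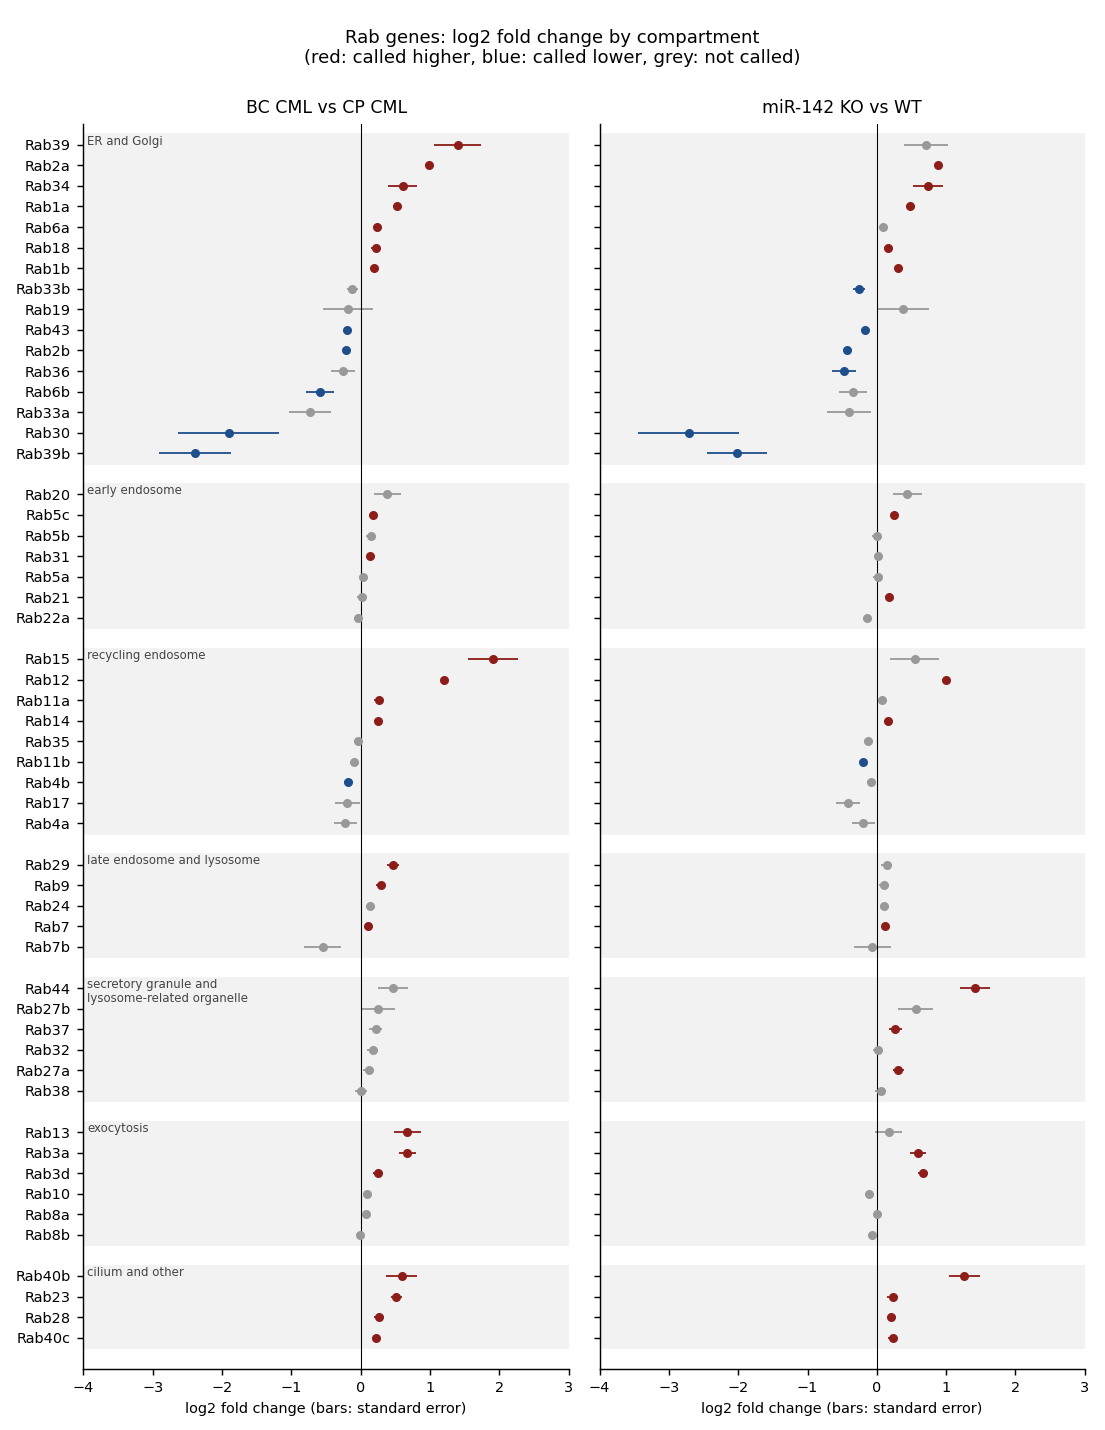
Log2 fold change of the 53 tested Rab genes in BC CML against CP CML (left) and in miR-142 KO against WT (right), grouped by compartment; points are edgeR estimates, bars their standard errors, red points were called higher, blue points lower and grey points were not called. Rab12 and Rab2a lie near 1 in both panels, Rab39b and Rab30 are far below 0 in both, and no granule gene was called in the left panel.

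The clearest pattern belonged to Rab12, Rab2a and Rab3a, the 3 tested genes for which all 12 libraries without miR-142 lay above all 12 libraries with it, beside 2.29% of all tested genes. Rab12, which acts in turnover of the transferrin receptor (chr17:66494512-66519670), is described first. Here and below, levels are the lowest, median and highest CPM of the 6 libraries of a group. It had 35.0, 37.6 and 39.1 CPM in WT and 69.5, 74.4 and 75.9 CPM in miR-142 KO. In CP CML it had 32.0, 35.8 and 40.2 CPM, and in BC CML 80.4, 83.1 and 87.1 CPM. The 12 libraries with miR-142 reached 40.2 CPM at most and the 12 without it started at 69.5 CPM. The log2 fold change was 1.20 ± 0.05, edgeR adjusted p = 4.46e-15, in BC CML against CP CML, a 2.30-fold difference, and 0.99 ± 0.05, edgeR adjusted p = 1.95e-13, in miR-142 KO against WT. Between BC CML and miR-142 KO, which both lack miR-142, it was 0.18 ± 0.05, edgeR adjusted p = 0.00432. These groups did not overlap either. In CP CML against WT it was -0.03 ± 0.05, edgeR adjusted p = 0.63, and the difference between the miR-142 effects in leukemic and normal LSKs was not called (log2 fold change 0.21 ± 0.07, edgeR adjusted p = 0.0778).

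Rab2a, which controls the compartment between ER and Golgi (chr4:8535644-8607702), had 91.9, 98 and 117 CPM in WT and 173, 181 and 205 CPM in miR-142 KO. The CP CML libraries had 104, 107 and 113 CPM and the BC CML libraries 198, 212 and 224 CPM. In leukemic LSKs its level without miR-142 was 1.97 times that with it. The log2 fold changes were 0.98 ± 0.05, edgeR adjusted p = 8.6e-13, in BC CML against CP CML and 0.88 ± 0.05, edgeR adjusted p = 8.5e-12, in miR-142 KO against WT. Its paralogue Rab2b, whose group means per length were 6.78 to 10.2 CPM per kb against 48.9 to 104 for Rab2a, went the other way, with 27.3, 28.8 and 31.3 CPM in WT and 20.1, 20.8 and 23.7 CPM in miR-142 KO. In leukemic LSKs the values were 19.9, 22.3 and 24.1 CPM in CP CML and 17.2, 19.2 and 21.3 CPM in BC CML. Rab2b was lower in miR-142 KO than WT with no overlap (log2 fold change -0.43 ± 0.07, edgeR adjusted p = 1.96e-05) and lower in BC CML than CP CML with overlap (log2 fold change -0.21 ± 0.07, edgeR adjusted p = 0.0146). Rab2b was also lower in CP CML than in WT (log2 fold change -0.38 ± 0.07, edgeR adjusted p = 6.91e-05), with no overlap, so WT stood above the other groups. It shares 195 exonic bases with Tox4 on the other strand, and the strand setting of the counting is not given in the sources used here.

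Rab3a, a Rab of regulated exocytosis best known from synapses (chr8:70754679-70758686), was expressed at a low level, with 3.07, 4.41 and 5.73 CPM in WT and 5.97, 6.5 and 7.76 CPM in miR-142 KO. With BCR-ABL it had 3.46, 4.13 and 4.86 CPM in CP CML and 5.80, 6.58 and 7.64 CPM in BC CML. The highest library with miR-142 had 5.73 CPM and the lowest without it 5.80 CPM, so the gap was narrow. Its log2 fold changes were 0.67 ± 0.12, edgeR adjusted p = 0.000123, in BC CML against CP CML and 0.60 ± 0.12, edgeR adjusted p = 0.000402, in miR-142 KO against WT. In CP CML against WT it was -0.10 ± 0.12, edgeR adjusted p = 0.538.

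**Figure D2:**
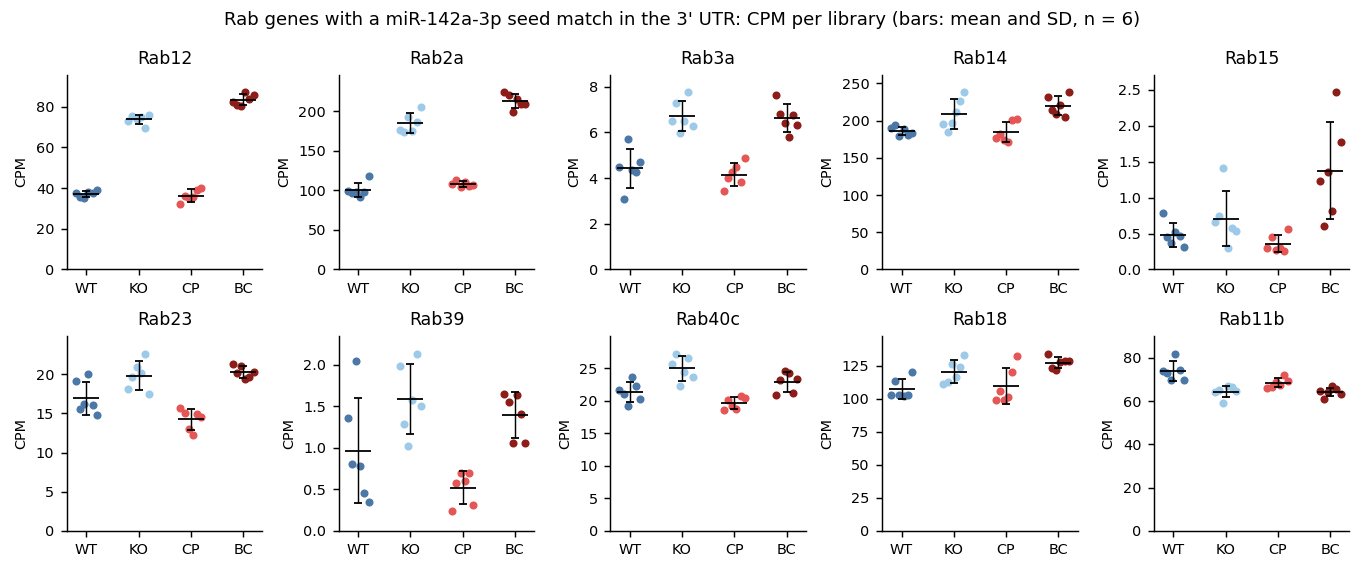
Level in CPM (vertical axis, from 0) of the 10 tested Rab genes with a miR-142a-3p seed match in the 3' UTR, in each of the 24 libraries by group; points are libraries and bars the mean and SD over 6 libraries. Rab12, Rab2a and Rab3a separate the libraries without miR-142 from those with it, and Rab11b is the gene that was lower in miR-142 KO than WT.

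Of the other genes with a miR-142a-3p match, Rab14, a Rab of Golgi to endosome transport, was abundant, with 179.8, 186 and 194 CPM in WT and 184, 204 and 238 CPM in miR-142 KO. Rab14 had 172, 179 and 202 CPM in CP CML and 205, 218 and 238 CPM in BC CML. The BC CML libraries lay above all CP CML libraries (log2 fold change 0.25 ± 0.06, edgeR adjusted p = 0.0014), whereas miR-142 KO overlapped with WT (log2 fold change 0.17 ± 0.06, edgeR adjusted p = 0.0269). The latter call was lost when WT replicate 5 or miR-142 KO replicate 5 or 6 was left out, with adjusted p up to 0.0775, with upper quartile normalization (0.112) and in the fit to these groups alone (0.0651). Rab23, which acts in cilia and hedgehog signalling, had 14.8, 16.1 and 20 CPM in WT and 17.4, 19.9 and 22.7 CPM in miR-142 KO. Corresponding levels were 12.2, 14.8 and 15.7 CPM in CP CML and 19.4, 20.2 and 21.4 CPM in BC CML. It rose in BC CML against CP CML without overlap (log2 fold change 0.51 ± 0.08, edgeR adjusted p = 2.87e-05) and in miR-142 KO against WT with overlap (log2 fold change 0.23 ± 0.08, edgeR adjusted p = 0.0287), a call lost without any 1 of 4 libraries (WT replicates 2, 5 and 6 and miR-142 KO replicate 5), with adjusted p up to 0.0702, with upper quartile normalization (0.0911) and in the fit to these groups alone (0.0933). Rab40c, a large Rab with a SOCS box, had 19.2, 21.3 and 23.6 CPM in WT and 22.3, 25 and 27.2 CPM in miR-142 KO. In CP CML it had 18.5, 19.6 and 20.6 CPM, and in BC CML 20.8, 23.2 and 24.5 CPM. It changed by 0.22 ± 0.06, edgeR adjusted p = 0.00602, in BC CML against CP CML and by 0.23 ± 0.06, edgeR adjusted p = 0.0055, in miR-142 KO against WT.

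Rab15 and Rab39 rested on few reads. Rab15, mainly known from neurons, had 5 to 13 counts per CP CML library and 14 to 58 per BC CML library. It had 0.306, 0.453 and 0.780 CPM in WT and 0.297, 0.619 and 1.42 CPM in miR-142 KO. The CP CML libraries had 0.262, 0.301 and 0.570 CPM and the BC CML libraries 0.604, 1.29 and 2.47 CPM. Every BC CML library lay above every CP CML library, and the log2 fold change of 1.91 ± 0.36, edgeR adjusted p = 0.00022, was the largest increase among the Rab genes in that comparison; in miR-142 KO against WT it was 0.55 ± 0.36, edgeR adjusted p = 0.241. Rab39, a Golgi and endosome Rab, had 4 to 16 counts per CP CML library and 21 to 36 per BC CML library. It had 0.350, 0.789 and 2.05 CPM in WT and 1.02, 1.54 and 2.13 CPM in miR-142 KO. In leukemic LSKs the values were 0.243, 0.587 and 0.699 CPM in CP CML and 1.06, 1.48 and 1.65 CPM in BC CML. It rose in BC CML against CP CML without overlap (log2 fold change 1.40 ± 0.34, edgeR adjusted p = 0.0025) and was not called in miR-142 KO against WT (log2 fold change 0.71 ± 0.32, edgeR adjusted p = 0.0871). Rab18, which shapes the ER and lipid droplets, changed less, with 0.22 ± 0.07, edgeR adjusted p = 0.0114, in BC CML against CP CML and 0.17 ± 0.07, edgeR adjusted p = 0.0488, in miR-142 KO against WT.

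Rab11b, a Rab of slow recycling, was the single gene of the 10 that was not higher in either comparison. It had 69.7, 73.5 and 82.0 CPM in WT and 59.2, 65.1 and 67.0 CPM in miR-142 KO. With BCR-ABL it had 66.1, 68.4 and 71.9 CPM in CP CML and 61.2, 64.4 and 66.9 CPM in BC CML. WT libraries lay above all miR-142 KO libraries (log2 fold change -0.20 ± 0.04, edgeR adjusted p = 0.000619), and BC CML overlapped with CP CML (log2 fold change -0.09 ± 0.04, edgeR adjusted p = 0.0821).

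Counted together, 9 of the 10 Rab genes with a miR-142a-3p match were called higher and 0 lower in BC CML against CP CML, and 7 were called higher and 1 lower in miR-142 KO against WT. Over all tested genes with a match, 36.7% were called higher in the former and 35.3% in the latter comparison. Over all tested Rab genes, with or without a match, these shares were 43.4% and 35.8%. In miR-142 KO against WT, the calls of Rab14 and Rab23 were lost with upper quartile normalization and in the fit to these groups alone. Rab18 was close to the threshold there (edgeR adjusted p = 0.0488). The median log2 fold change in BC CML against CP CML was 0.59 for Rab genes with a match and 0.10 for those without, beside 0.12 and 0.02 over all genes. In miR-142 KO against WT the medians were 0.39 and 0.05 for Rab genes, beside 0.09 and 0.01 over all genes. For miR-142a-5p, 10 tested Rab genes held a match, of which 3 were called higher and 1 lower in BC CML against CP CML and 4 and 1 in miR-142 KO against WT. Among all tested genes 15.8% held that match, and of these 22.9% were called higher in BC CML against CP CML and 19.4% in miR-142 KO against WT.

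**Figure D3:**
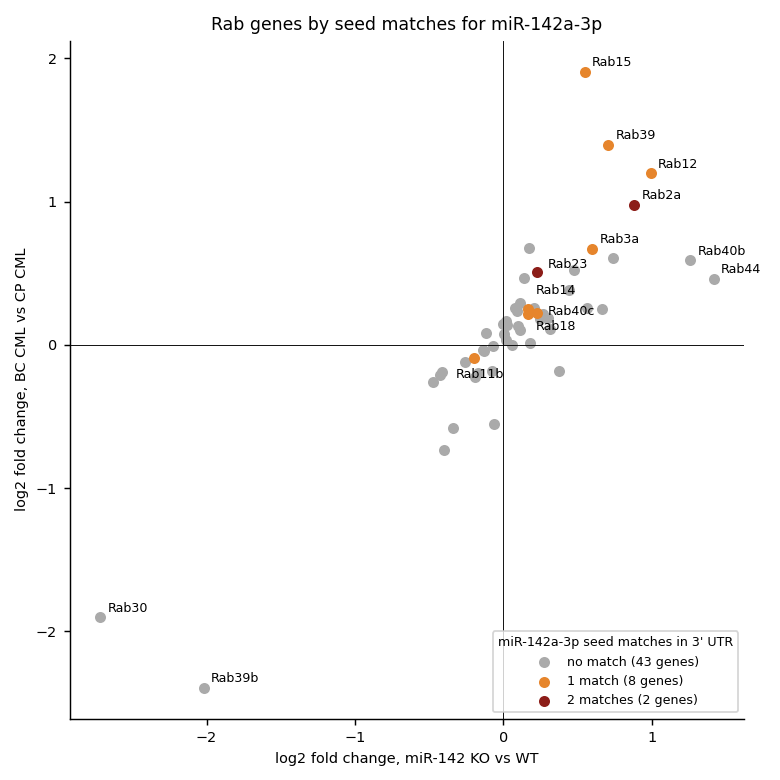
Log2 fold change of each of the 53 tested Rab genes in miR-142 KO against WT (horizontal axis) and in BC CML against CP CML (vertical axis), coloured by the number of miR-142a-3p seed matches in the 3' UTR (grey 0, orange 1, dark red 2). The genes with a match lie in the upper right region except Rab11b, and genes without a match, such as Rab40b and Rab44, lie there too.

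Further ER and Golgi genes rose without a miR-142a-3p match. Rab1a, which carries cargo from ER to Golgi and holds a miR-142a-5p match, had 137, 165 and 169.8 CPM in WT and 199, 219 and 245 CPM in miR-142 KO. Rab1a had 184, 192 and 207 CPM in CP CML and 243, 282 and 308 CPM in BC CML. Neither pair of groups overlapped, and the log2 fold changes were 0.52 ± 0.06, edgeR adjusted p = 6.01e-07, in BC CML against CP CML and 0.48 ± 0.06, edgeR adjusted p = 1.83e-06, in miR-142 KO against WT. It was also higher in CP CML than in WT (log2 fold change 0.29 ± 0.06, edgeR adjusted p = 0.000646) and in BC CML than in miR-142 KO (log2 fold change 0.33 ± 0.06, edgeR adjusted p = 0.000273), so that its medians were lowest in WT and highest in BC CML. Its paralogue Rab1b had 82.0, 85.0 and 96.0 CPM in WT and 95.0, 107 and 117 CPM in miR-142 KO. Corresponding levels were 89.1, 105 and 113 CPM in CP CML and 112, 115 and 126 CPM in BC CML. Its changes were smaller, at 0.19 ± 0.06, edgeR adjusted p = 0.0111, in BC CML against CP CML, where leaving out CP CML replicate 6 gave an adjusted p of 0.0548, and 0.30 ± 0.06, edgeR adjusted p = 0.000209, in miR-142 KO against WT.

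In BC CML against CP CML, 3 pairs of paralogues, Rab2a and Rab2b, Rab6a and Rab6b, and Rab39 and Rab39b, held genes called in opposite directions, out of 13 numbered families with at least 2 tested members. Rab6a, which returns cargo from Golgi to ER, had 79.5, 85.6 and 97.6 CPM in WT and 83.4, 91.1 and 104 CPM in miR-142 KO. In CP CML it had 83.0, 86.3 and 88.2 CPM, and in BC CML 90.5, 104 and 111 CPM. It was higher in BC CML than CP CML with no overlap (log2 fold change 0.24 ± 0.06, edgeR adjusted p = 0.00228), and in miR-142 KO against WT the difference was 0.09 ± 0.06, edgeR adjusted p = 0.206. Rab6a shares 708 exonic bases with Mrpl48 on the other strand. Rab6b, the mainly neuronal form, had 16.9, 21.2 and 36.0 CPM in WT and 14.6, 19.6 and 23.9 CPM in miR-142 KO. The CP CML libraries had 14.2, 17.3 and 21.1 CPM and the BC CML libraries 7.31, 11.7 and 16.6 CPM. It was lower in BC CML than CP CML (log2 fold change -0.58 ± 0.20, edgeR adjusted p = 0.026), a call lost in 6 of the 24 fits with 1 library left out (CP CML replicates 1, 5 and 6 and BC CML replicates 1, 2 and 4; adjusted p up to 0.0634), and its difference in miR-142 KO against WT was -0.34 ± 0.20, edgeR adjusted p = 0.184.

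Rab39b, a mainly neuronal Golgi Rab, had 0.419, 1.11 and 1.68 CPM in WT and 0.0442, 0.237 and 0.493 CPM in miR-142 KO. In leukemic LSKs the values were 0.248, 0.542 and 1.01 CPM in CP CML and 0, 0.121 and 0.181 CPM in BC CML. It had 0 to 4 counts per BC CML library and 6 to 23 per CP CML library. Every BC CML library lay below every CP CML library. The fitted log2 fold changes were -2.39 ± 0.52, edgeR adjusted p = 0.000939, in BC CML against CP CML and -2.02 ± 0.43, edgeR adjusted p = 0.000819, in miR-142 KO against WT, both from levels near the detection limit. Rab30, another Golgi Rab at 0 to 7 counts per library without miR-142 and 2 to 32 with it, was also lower in both comparisons. Rab43 and Rab2b were the other genes called lower in both.

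**Figure D4:**
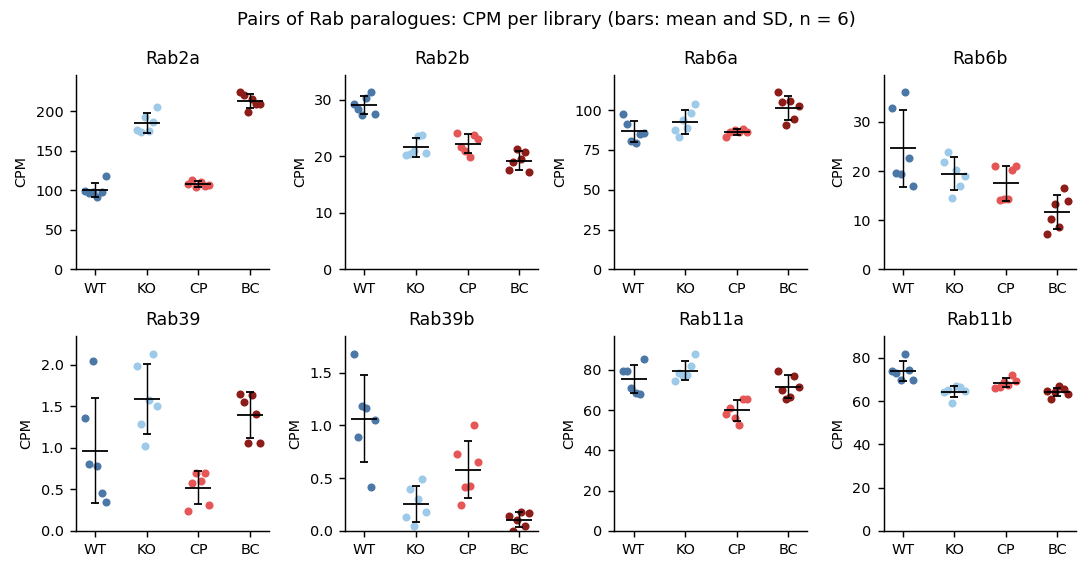
Level in CPM (vertical axis, from 0) of 4 pairs of Rab paralogues in each of the 24 libraries by group; points are libraries and bars the mean and SD over 6 libraries. Rab2a and Rab2b, and Rab39 and Rab39b, differ in opposite directions between CP CML and BC CML.

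Among endosomal genes, Rab5c was the member of its family called in both miR-142 comparisons. Its levels were 134, 142 and 153 CPM in WT and 158, 166 and 198 CPM in miR-142 KO. With BCR-ABL it had 159, 171 and 180.2 CPM in CP CML and 189, 190.2 and 201 CPM in BC CML. It was higher in BC CML than CP CML and in miR-142 KO than WT, with no overlap in either (log2 fold change 0.18 ± 0.05, edgeR adjusted p = 0.00564, and 0.25 ± 0.05, edgeR adjusted p = 0.000396). It was also higher in CP CML than WT (log2 fold change 0.25 ± 0.05, edgeR adjusted p = 0.000383). The same held for BC CML against miR-142 KO (log2 fold change 0.18 ± 0.05, edgeR adjusted p = 0.00649). Its differences with BCR-ABL were thus as large as those with miR-142, and its median was higher in CP CML than in miR-142 KO. The other early endosome fusion Rabs were not called in either miR-142 comparison: Rab5a had 0.03 ± 0.06, edgeR adjusted p = 0.713, in BC CML against CP CML and 0.01 ± 0.06, edgeR adjusted p = 0.879, in miR-142 KO against WT, and Rab5b had 0.14 ± 0.06, edgeR adjusted p = 0.0744, and -0.0024 ± 0.06, edgeR adjusted p = 0.982. Rab5a had 37.8, 43.0 and 46.1 CPM in WT and 39.1, 41.3 and 49.2 CPM in miR-142 KO. Rab5a had 44.0, 47.5 and 49.9 CPM in CP CML and 44.1, 48.6 and 52.0 CPM in BC CML. Rab5b had 37.0, 43.3 and 48.5 CPM in WT and 36.7, 43.5 and 47.9 CPM in miR-142 KO. Corresponding levels were 37.1, 38.1 and 42.0 CPM in CP CML and 39.3, 42.4 and 45.8 CPM in BC CML. The differences between these paralogues were not tested.

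Rab11a, Rab29 and Rab9 differed with miR-142 in leukemic LSKs. Rab11a, which returns endosomal cargo to the cell surface, had 67.8, 75.4 and 85.2 CPM in WT and 74.5, 78 and 88.2 CPM in miR-142 KO. In CP CML it had 52.9, 59.6 and 65.8 CPM, and in BC CML 65.5, 70.9 and 79.3 CPM. CP CML stood lowest: it was below WT with no overlap (log2 fold change -0.33 ± 0.07, edgeR adjusted p = 0.000384), and BC CML was above it (log2 fold change 0.26 ± 0.07, edgeR adjusted p = 0.00372). Rab29, which binds the kinase LRRK2 at Golgi and lysosome, had 16.2, 16.7 and 18.8 CPM in WT and 16.4, 18.8 and 21.3 CPM in miR-142 KO. The CP CML libraries had 11.1, 14 and 15.6 CPM and the BC CML libraries 17.0, 19.4 and 19.7 CPM. CP CML was lowest for it too, with no overlap between CP CML and either WT (log2 fold change -0.34 ± 0.08, edgeR adjusted p = 0.00226) or BC CML (log2 fold change 0.47 ± 0.08, edgeR adjusted p = 0.000134). Rab9, which moves cargo from late endosomes to the Golgi, had 21.9, 25.6 and 28.4 CPM in WT and 23.9, 27.7 and 29.1 CPM in miR-142 KO. In leukemic LSKs the values were 23.9, 26.9 and 29.8 CPM in CP CML and 28.2, 33.6 and 34.4 CPM in BC CML. It was higher in BC CML than CP CML (log2 fold change 0.29 ± 0.07, edgeR adjusted p = 0.00212) but was not called in miR-142 KO against WT (log2 fold change 0.11 ± 0.07, edgeR adjusted p = 0.238). The difference between the miR-142 effects was not called for these 3 genes, with values of 0.18 ± 0.09, edgeR adjusted p = 0.305, for Rab11a, 0.33 ± 0.12, edgeR adjusted p = 0.12, for Rab29 and 0.18 ± 0.10, edgeR adjusted p = 0.32, for Rab9.

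Rab7, which drives fusion of late endosomes with lysosomes, had 136, 139.6 and 148 CPM in WT and 143, 152 and 164 CPM in miR-142 KO. With BCR-ABL it had 157, 161 and 172 CPM in CP CML and 166, 177 and 179 CPM in BC CML. It was higher in both leukemic groups than in the groups of the same miR-142 genotype, with no overlap in either (log2 fold change 0.21 ± 0.04, edgeR adjusted p = 0.000158, in CP CML against WT and 0.20 ± 0.04, edgeR adjusted p = 0.000401, in BC CML against miR-142 KO). Its differences with miR-142 were near 0.1, and the call in BC CML against CP CML (log2 fold change 0.10 ± 0.04, edgeR adjusted p = 0.0389) was lost in 20 of 24 fits with 1 library left out, with adjusted p up to 0.147, and under 6 of the other settings. In miR-142 KO against WT it was 0.11 ± 0.04, edgeR adjusted p = 0.0253, with an adjusted p of 0.0501 without WT replicate 1, of 0.166 with upper quartile normalization and of 0.0917 in the fit to these groups alone. Rab7b, a paralogue of endosome to Golgi transport, had 3.79, 8.45 and 22.2 CPM in WT and 5.40, 9.99 and 11.3 CPM in miR-142 KO. Rab7b had 13.1, 15.0 and 18.4 CPM in CP CML and 9.27, 10.6 and 11.9 CPM in BC CML. Its WT libraries spanned the widest range. Rab7b was called higher in CP CML than WT (log2 fold change 0.66 ± 0.27, edgeR adjusted p = 0.0475). That call was lost in 15 of 24 fits with 1 library left out, with adjusted p up to 0.112. It was also lost without a filter, with upper quartile normalization and in the fit to these groups alone.

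Rabs of secretory granules and lysosome-related organelles store and release the contents of blood cell granules. Of the 6 tested granule genes, 0 were called in BC CML against CP CML by edgeR and 0 by DESeq2, while 3 (Rab32, Rab37 and Rab44) had an unadjusted p under 0.05 in both. With upper quartile normalization 0 had such a p, and with the filter of 1 CPM in 6 libraries 2 did (Rab37 and Rab44). In miR-142 KO against WT 3 were higher and 0 lower, beside 19.9% and 16.4% of all genes. All 6 were called in CP CML against WT, 4 higher and 2 lower, beside 22.5% and 22.9% of all genes. Of these 6 calls, that of Rab38 was lost in 8 of 24 fits with 1 library left out. Rab44 (chr17:29135056-29148976) had 91.1, 183 and 359 CPM in WT and 358, 549.5 and 616 CPM in miR-142 KO. Corresponding levels were 325, 388 and 438 CPM in CP CML and 498, 534 and 588 CPM in BC CML. The WT median was lowest, and 1 WT library overlapped with the lowest miR-142 KO and CP CML libraries. It was higher in miR-142 KO than WT (log2 fold change 1.42 ± 0.22, edgeR adjusted p = 1.99e-05, a 2.67-fold difference) and in CP CML than WT (log2 fold change 0.99 ± 0.21, edgeR adjusted p = 0.000757). In BC CML against CP CML the libraries did not overlap but the gene was not called (log2 fold change 0.46 ± 0.21, edgeR adjusted p = 0.0887). The difference between the miR-142 effects was -0.95 ± 0.30, edgeR adjusted p = 0.0745.

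Rab27a, which docks granules for secretion in leukocytes, had 138, 162 and 214 CPM in WT and 184, 214 and 231 CPM in miR-142 KO. In CP CML it had 219, 240.4 and 252 CPM, and in BC CML 247, 257 and 269 CPM. It was higher in CP CML than WT with no overlap (log2 fold change 0.48 ± 0.07, edgeR adjusted p = 2.59e-05) and in miR-142 KO than WT with overlap (log2 fold change 0.31 ± 0.07, edgeR adjusted p = 0.00206), and in BC CML against CP CML it was 0.11 ± 0.07, edgeR adjusted p = 0.236. Rab27b, its partner in platelets and mast cells, had 14.7, 21.3 and 25.3 CPM in WT and 12, 29.3 and 53.1 CPM in miR-142 KO. The CP CML libraries had 33.7, 53.3 and 63.1 CPM and the BC CML libraries 42.9, 57.1 and 89.3 CPM. Every CP CML library lay above every WT library (log2 fold change 1.35 ± 0.25, edgeR adjusted p = 0.000166), and BC CML was higher than miR-142 KO with overlap (log2 fold change 1.05 ± 0.25, edgeR adjusted p = 0.00201). Rab38 of lysosome-related organelles went the other way with 94.8, 108 and 120.4 CPM in WT and 92.4, 113 and 134 CPM in miR-142 KO. In leukemic LSKs the values were 89.6, 91.0 and 95.5 CPM in CP CML and 83.6, 90.9 and 111 CPM in BC CML. It was lower in CP CML than WT (log2 fold change -0.22 ± 0.08, edgeR adjusted p = 0.0303), a call lost in 8 of 24 fits with 1 library left out (WT replicates 1, 4 and 6 and CP CML replicates 1 to 5, adjusted p up to 0.0807), and lower in BC CML than miR-142 KO (log2 fold change -0.27 ± 0.08, edgeR adjusted p = 0.0106). Rab32 was higher and Rab37 lower in both of these BCR-ABL comparisons.

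Marker lists of granule-bearing cells moved in different directions. The 8 mast cell or basophil genes summed to 4743 to 10099 CPM in BC CML libraries against 1792 to 3303 in CP CML, and to 489 to 3100.0 CPM in miR-142 KO against 272 to 821 in WT. The 5 neutrophil-primed genes summed, in the same order, to 5832 to 8562, 4484 to 7645, 2763 to 7534 and 1247 to 4844 CPM. None of the 8 and none of the 5 was at 0 in all libraries, and 6 of 8 mast cell or basophil genes and 5 of 5 neutrophil-primed genes were called higher in CP CML against WT. In the same comparison 0 of 5 mature neutrophil genes were higher and 1 lower, and 1 of 7 megakaryocyte and platelet genes was higher and 3 lower. In BC CML against miR-142 KO 5 of 5 mature neutrophil genes and 6 of 7 megakaryocyte and platelet genes were lower. Their part in the granule Rab levels was not tested.

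**Figure D5:**
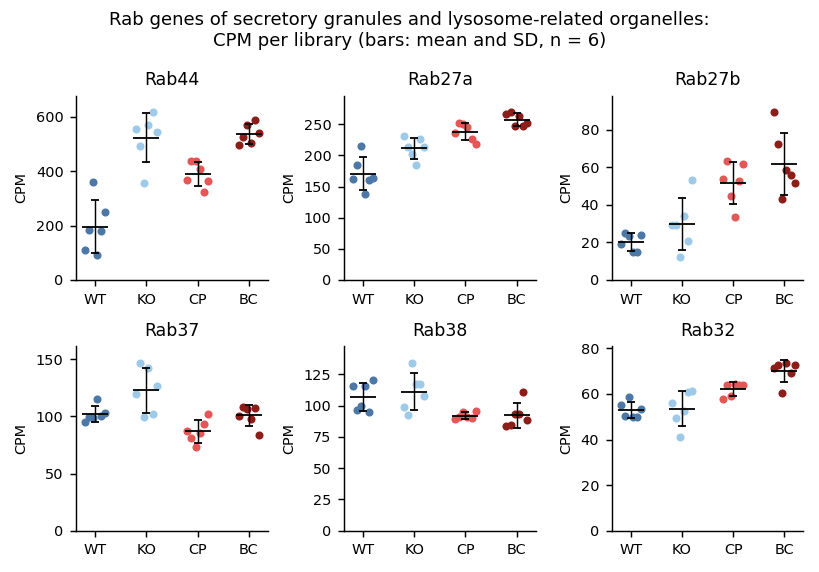
Level in CPM (vertical axis, from 0) of the 6 tested Rab genes of secretory granules and lysosome-related organelles in each of the 24 libraries by group; points are libraries and bars the mean and SD over 6 libraries. The WT median is the lowest for Rab44 and Rab27a, with overlap between WT and miR-142 KO, the medians of both leukemic groups are the highest for Rab27b, with overlap with miR-142 KO, and the medians of Rab38 are lower in the leukemic groups.

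Among the exocytosis genes, Rab3d was called for a difference in its response to miR-142 loss between normal and leukemic LSKs. It was the only such call in the main fit, 1 of 53 Rab genes (1.89%) beside 3.99% of all genes. With 1 library left out, 1 to 4 Rab genes were called. At an unadjusted p under 0.05 there were 9 Rab genes, and a gene not called is not shown to respond equally. Rab3d, of regulated exocytosis in non-neuronal secretory cells, had 38.5, 43.7 and 50.1 CPM in WT and 64.5, 67.9 and 78.2 CPM in miR-142 KO. With BCR-ABL it had 54.2, 55.0 and 66.9 CPM in CP CML and 65.4, 67.4 and 73.8 CPM in BC CML. The WT libraries lay below all others. The log2 fold change was 0.66 ± 0.07, edgeR adjusted p = 7.97e-08, in miR-142 KO against WT and 0.25 ± 0.07, edgeR adjusted p = 0.00495, in BC CML against CP CML, and the difference of the effects was -0.42 ± 0.09, edgeR adjusted p = 0.0146. Rab3d was also higher in CP CML than WT (log2 fold change 0.41 ± 0.07, edgeR adjusted p = 5.27e-05), and BC CML and miR-142 KO had nearly equal medians (log2 fold change -0.01 ± 0.07, edgeR adjusted p = 0.926). The remaining Rab3 genes were at the detection limit, with Rab3b at 0.424 CPM or less and Rab3c at 0.0442 CPM or less in every library.

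Rab40b, a SOCS box Rab without a miR-142a-3p match, had 0.544, 1.18 and 2.17 CPM in WT and 2.65, 2.83 and 3.63 CPM in miR-142 KO. Rab40b had 1.21, 1.38 and 2.08 CPM in CP CML and 2.07, 2.17 and 2.94 CPM in BC CML. Every miR-142 KO library lay above every WT library (log2 fold change 1.26 ± 0.22, edgeR adjusted p = 0.000123). In BC CML against CP CML it was higher at 0.59 ± 0.22, edgeR adjusted p = 0.0391, a call lost in 15 of 24 fits with 1 library left out (adjusted p up to 0.101) and with upper quartile normalization or no filter. Rab23, Rab28, Rab40b and Rab40c make up the cilium and other group. Its tested members, 4 of 4, were all called higher in both miR-142 comparisons. The group is small and mixed and depends on how genes were placed. Rab34, of ciliogenesis, was placed with the ER and Golgi genes. The count therefore describes these 4 genes and not an organelle. Over all tested genes 11.5% were higher in both, and over the tested Rab genes 28.3%. Like the Rab40b call in BC CML against CP CML, the Rab23 call in miR-142 KO against WT was lost under several alternatives.

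The other 24 tested Rab genes held 5 of the higher and 3 of the lower calls in BC CML against CP CML, and 5 and 4 in miR-142 KO against WT. Rab13, which acts at cell junctions, was higher in BC CML than CP CML (log2 fold change 0.67 ± 0.19, edgeR adjusted p = 0.00848). Rab34, of ciliogenesis and lysosome positioning, was higher both there (log2 fold change 0.61 ± 0.21, edgeR adjusted p = 0.0237) and in miR-142 KO against WT (log2 fold change 0.74 ± 0.21, edgeR adjusted p = 0.00883). Rab28 rose in both too (log2 fold change 0.26 ± 0.07, edgeR adjusted p = 0.00394, and 0.21 ± 0.07, edgeR adjusted p = 0.0191). Rab43, a Golgi Rab that shares 579 exonic bases with Gm45140 on the same strand, was lower in both (log2 fold change -0.20 ± 0.06, edgeR adjusted p = 0.0124, and -0.17 ± 0.06, edgeR adjusted p = 0.029). Of the genes not tested, Rab25 reached at most 0.554 CPM, Rab26 0.698 CPM, Rab42 0.317 CPM and Rab9b 0.131 CPM in any library. A count of 0 in a library allows up to 3 counts.

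With miR-142 present, BCR-ABL changed 30 of 53 Rab genes: 16 were higher in CP CML than WT and 14 lower, beside 22.5% and 22.9% of all genes. With miR-142 absent, 20 were higher and 6 lower in BC CML than miR-142 KO, beside 20.3% and 19.3% of all genes, and this split was 15 and 9 with upper quartile normalization. These comparisons share their groups with those above, and they rest partly on single libraries: without WT replicate 4, 20 genes were called in CP CML against WT, and without miR-142 KO replicate 4, 16 were called in BC CML against miR-142 KO. Rab19 had the largest increase among the genes not described above (log2 fold change 1.49 ± 0.37, edgeR adjusted p = 0.00255, in CP CML against WT and 0.93 ± 0.37, edgeR adjusted p = 0.0469, in BC CML against miR-142 KO), and Rab17, of epithelial recycling, was lower in both (log2 fold change -0.72 ± 0.17, edgeR adjusted p = 0.00176, and -0.50 ± 0.17, edgeR adjusted p = 0.026). Of the 7 early endosome genes, 4 were called higher in each, beside the 22.5% and 20.3% of all genes, with Rab20, Rab5a and Rab5c in both. In CP CML against WT 1, Rab5b, was called lower (log2 fold change -0.16 ± 0.06, edgeR adjusted p = 0.0387), a call lost in 19 of 24 fits with 1 library left out (adjusted p up to 0.145). The call of Rab5a was lost without WT replicate 1 or 4 in CP CML against WT (adjusted p up to 0.0918), without a filter or with upper quartile normalization and without replicate 1, 4 or 5 of either group in BC CML against miR-142 KO (up to 0.0757) and in the fit to these groups alone (0.0526).

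The genes that load, escort, switch or read Rab proteins were counted in the same way. Of 151 tested genes in a list of 155, 32 were higher (21.2%) and 31 lower (20.5%) in BC CML against CP CML, beside 20.4% and 17.6% of all genes. In miR-142 KO against WT 39 were higher (25.8%) and 21 lower (13.9%), beside 19.9% and 16.4%, a split of 25 and 36 with upper quartile normalization. Escort, prenylation and GDI genes were called with 8 of 14 higher and 0 lower in BC CML against CP CML, and 4 higher and 1 lower in miR-142 KO against WT. Yipf2, a Golgi protein of the family that binds prenylated Rabs, had 0.45 ± 0.09, edgeR adjusted p = 0.000371, and 0.28 ± 0.09, edgeR adjusted p = 0.0149, and Rabggtb, the catalytic subunit of the enzyme that prenylates Rabs, had 0.25 ± 0.06, edgeR adjusted p = 0.0015, and 0.04 ± 0.06, edgeR adjusted p = 0.648, in the same order of comparisons. Chml, a Rab escort protein, was higher in both (log2 fold change 0.38 ± 0.10, edgeR adjusted p = 0.00454, and 0.30 ± 0.10, edgeR adjusted p = 0.0205), and for Yipf5 the difference between the miR-142 effects was called (log2 fold change 0.39 ± 0.11, edgeR adjusted p = 0.0377), with 0.35 ± 0.08, edgeR adjusted p = 0.000843, in BC CML against CP CML and -0.04 ± 0.08, edgeR adjusted p = 0.695, in miR-142 KO against WT.

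Of 43 tested exchange factors, 8 were higher (18.6%) and 13 lower (30.2%) in BC CML against CP CML, and 12 (27.9%) and 5 (11.6%) in miR-142 KO against WT, to be read against the same shares of all genes. Dennd3, the exchange factor for Rab12, was lower in both, at -0.88 ± 0.09, edgeR adjusted p = 8.15e-08, and -0.38 ± 0.09, edgeR adjusted p = 0.00187, so the activator and Rab12 itself differed in opposite directions at the RNA level. The difference of its effects was -0.50 ± 0.13, edgeR adjusted p = 0.0249. Of 36 GAPs, 8 were higher (22.2%) and 8 lower (22.2%) in BC CML against CP CML, and 10 (27.8%) and 8 (22.2%) in miR-142 KO against WT. The GAPs with the smallest p all rose in both, led by Evi5, a GAP linked to Rab11 (log2 fold change 0.84 ± 0.08, edgeR adjusted p = 1.73e-08, and 0.80 ± 0.08, edgeR adjusted p = 4.18e-08), with Tbc1d2b, Tbc1d9b and Tbc1d2 between 0.48 and 0.93 on the log2 scale.

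Of 58 tested effectors, 8 were higher (13.8%) and 10 lower (17.2%) in BC CML against CP CML, at or below the shares of all genes, and 13 (22.4%) and 7 (12.1%) in miR-142 KO against WT. Sytl5 and Sytl4, synaptotagmin-like proteins that bind Rab27, fell in both comparisons, Sytl5 at -3.44 ± 0.43, edgeR adjusted p = 1.67e-06, and -3.04 ± 0.40, edgeR adjusted p = 2.97e-06, and Sytl4 at -0.92 ± 0.15, edgeR adjusted p = 4.25e-05, and -1.0 ± 0.15, edgeR adjusted p = 1.09e-05. Sytl5 was near the detection limit without miR-142, at 0.0453 to 0.298 CPM in BC CML and 0.0885 to 0.534 CPM in miR-142 KO. With miR-142 it had 1.02 to 3.33 CPM in CP CML and 1.42 to 4.48 CPM in WT. Myo5a, a motor that reaches Rab27a on granules and melanosomes, and Rbsn, an early endosome effector of Rab4 and Rab5, were higher in both, at 0.28 ± 0.05, edgeR adjusted p = 0.000296, and 0.33 ± 0.05, edgeR adjusted p = 3.96e-05, for Myo5a and 0.26 ± 0.03, edgeR adjusted p = 1.46e-06, and 0.36 ± 0.03, edgeR adjusted p = 1.43e-08, for Rbsn.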

How the data were processed

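Total RNA of sorted bone marrow LSKs had been made into libraries with the Kapa mRNA HyperPrep kit and sequenced in pairs on a NovaSeq6000. The authors trimmed reads with Trimmomatic and FASTP, mapped them to mm10 with STAR 2.6.0 and counted them per gene with HTSeq-count 0.11.1, and the deposited values are read counts without normalization, with gene length in kilobases beside them. The annotation and strand setting are not given in the sources used here, so reads of a Rab gene and an overlapping gene could not be told apart. The study's methods give 5 mice per group, whereas 6 libraries per group were used here. All 24 columns of counts matched 1 labelled sample each.

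Counts were tested in edgeR 4.0.16 (R 4.3.3) with filterByExpr, TMM normalization, quasi-likelihood F tests on all 24 libraries in 1 fit and Benjamini-Hochberg adjustment over 13520 genes, with a threshold of 0.05 whatever the fold change. The study's likelihood ratio test was used as an alternative. The SE is the log2 fold change divided by the square root of F. CPM values use TMM-scaled library sizes; CPM per kb divides them by the deposited length. Libraries held 16267965 to 24687077 counts, and the limit of 3 counts used for a count of 0 covers counting error only. The scripts were tested on simulated counts.

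Groups came from the labelled genotype. Replicate numbers follow accession order and pair no samples. Alternatives were other scalings (RLE, upper quartile), other filters, the likelihood ratio test, DESeq2 1.42.0, sex as a covariate, fits to the groups compared alone and each library left out. Genes given in full were the 20 Rab genes with the smallest p in either miR-142 comparison, those called for the difference of effects, up to 3 from CP CML against WT, the 5 with the highest level per length, and their paralogues, 32 in all. The other Rab genes are given by counts, and those of them named were chosen after their values were seen. Rab machinery genes named were among the 4 per role with the smallest p in BC CML against CP CML. Marker lists covered LSKs and 8 other cell types. The Rab genes, compartments and lists were chosen with earlier results of these data known. Sequences came from RefSeq (GRCm38.p6) for miR-142 and from GENCODE M21 (GRCm38) for 3' UTRs.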

Additional observations from a re-analysis of the deposited data

Results flagged for a closer look

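Rab3d differed in its response to miR-142 loss between leukemic and normal LSKs, with a difference of effects of -0.42 ± 0.09 on the log2 scale (edgeR adjusted p = 0.0146). It was tested directly, as an interaction in the fit to all libraries, and the call held in each of the alternatives tried.

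In 8 of the 116 groups of 6 libraries examined (29 tested Rab genes given in full in 4 groups), 1 library stood apart from the other 5 by Dixon's test at the 95% level, and chance alone gives about 1 in 20 groups. In miR-142 KO, replicate 3, a female, was the lowest for Rab11b (59.2 CPM, with the others at 64.2 to 67.0) and Rab7b (5.40 CPM, others 9.48 to 11.3) and the highest for Rab40b (3.63 CPM, others 2.65 to 2.92) and Rab5c (198 CPM, others 158 to 172). WT replicate 6 was the highest for Rab2a, at 117 CPM with the others at 91.9 to 99.0. In BC CML, replicate 5 was the highest for Rab38 (111 CPM, others 83.6 to 93.3) and replicate 4 for Rab5c (201 CPM, others 189 to 193), and CP CML replicate 1 was the highest for Rab5b (42.0 CPM, others 37.1 to 38.7).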

How the results depend on the processing

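No called log2 fold change of the Rab genes given in full reversed its direction under any alternative. The split of machinery genes in miR-142 KO against WT did turn with upper quartile normalization, as given above. For the 32 genes given in full, the called values that lost significance numbered 1 of 71 with RLE size factors, 7 of 71 with upper quartile normalization, 7 of 71 without a filter, 4 of 67 with a filter of 1 CPM in 6 libraries, 3 of 71 with the likelihood ratio test, 0 of 71 with DESeq2, 1 of 71 with sex as a covariate, 11 of 69 in fits to the groups compared, and 162 of 1704 with 1 library left out. Rab genes called for the difference of effects numbered 1 in the main result, 2 with the likelihood ratio test, 3 with DESeq2, 2 with sex as a covariate and 1 to 4 with 1 library left out (4 without WT replicate 3 and without miR-142 KO replicate 3). For miR-142 KO against WT, 26 were called, 16 in the fit to these groups alone and 21 to 27 with 1 library left out. The other ranges with 1 library left out were 23 to 31 for BC CML against CP CML, 20 to 32 for CP CML against WT (20 without WT replicate 4) and 16 to 28 for BC CML against miR-142 KO (16 without miR-142 KO replicate 4). The cause was not tested. Machinery genes called ranged from 58 to 68 and from 56 to 63 in the 2 miR-142 comparisons. No scaling moved the median log2 fold change of all genes by over 0.1. No paired analysis was possible because the labels give no replicate numbers shared between groups. At this depth, Rab genes under about 1 CPM rest on few reads per library, and differences between them are the least certain.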
